A study of Mus musculus with 162 samples.

Results

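The genes described here are the phase II conjugation enzymes of 3 families in a mouse fasting series. They were chosen by a rule on the symbol alone. It covered the numbered genes of the glutathione S-transferase classes Gsta, Gstk, Gstm, Gsto, Gstp and Gstt. It also covered those of the UDP-glucuronosyltransferase families Ugt1a, Ugt2a and Ugt2b, and of the cytosolic sulfotransferases (Sult). The rule took 61 of the 53686 genes in the count table, 21 of them glutathione S-transferases (GST), 19 UDP-glucuronosyltransferases (UGT) and 21 sulfotransferases (SULT). The series measured mRNA by sequencing in 18 male C57BL/6J mice aged 8 to 9 weeks, all wild type, which were fed ad libitum (0 h) or had fasted for 2, 8, 12, 18 or 22 h with free access to water, 3 mice at each of the 6 durations. All mice were killed by cervical dislocation early in the dark phase, so food was withdrawn at a different clock time for each group and the fasts covered different parts of the day. Each mouse gave 9 organs, namely olfactory bulb (OB), telencephalon with diencephalon (BRN), cerebellum (CBL), brainstem (BST), stomach (STM), liver (LIV), interscapular brown fat (iBAT) and the perigonadal and posterior subcutaneous white fats (pgWAT and psWAT). The 5 libraries that the study excluded were left out (BRN 8 h replicate 3 and 18 h replicate 1, STM 12 h replicate 3, iBAT 22 h replicate 1 and psWAT 22 h replicate 2), which left 16 to 18 libraries in each organ.

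Phase II enzymes join a polar group to a drug, a toxin, a hormone or a product of metabolism, which makes it easier to excrete in bile or urine. Glutathione S-transferases use the tripeptide glutathione, UDP-glucuronosyltransferases use UDP-glucuronic acid in the endoplasmic reticulum, and sulfotransferases use the sulfate donor PAPS in the cytosol. The liver is the main site of the 3 reactions, while stomach, fat and brain carry sets of their own. Glutathione S-transferases are named by class, alpha (Gsta) and mu (Gstm) being the abundant liver classes, pi (Gstp) a class known from detoxification and from stress signalling, theta (Gstt) and kappa (Gstk, in mitochondria and peroxisomes) older classes, and omega (Gsto) a class that also reduces thiols and arsenic compounds.

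Many of the members lay in clusters of related genes. In the Gencode M21 annotation of build GRCm38, the 7 Gstm genes stood at chr3:107895821-108044894, and the Ugt2 genes with Sult1b1, Sult1d1 and Sult1e1 at chr5:86889767-87591594. Gsta1, Gsta2 and Gsta4 lay within chr9:78182774-78355788, while Gsta3 lay on chromosome 1, as did the Ugt1a genes. The Ugt1a genes each have their own first exon and share the later ones, so that 50.3 to 60.6% of their exon bases belonged to more than 1 of them and only reads in the rest could be counted for a single gene. Of the 150-base windows of Gstp1 and Gstp2, 41.8% and 49.4% had an exact match in another gene, counting each other and the pseudogene Gstp-ps, so that their counts are uncertain.

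The upstream regions of 4 members are printed because the results below turn on these genes or because they hold a motif of the antioxidant response. The sequences are from RefSeq on build GRCm38.p6, give the 250 bases before the transcription start from 5′ to 3′ on the gene's strand, and are in lower case except for the stretch of interest. Gstp1 (chr19:4037913-4038162, minus strand) and Gstp2 (chr19:4042222-4042471, minus strand) were 78.9% identical over 265 aligned columns, and the capitals mark their longest identical run, 43 bases that begin 224 bases before the start in Gstp1 and 237 bases before it in Gstp2.
Gstp1: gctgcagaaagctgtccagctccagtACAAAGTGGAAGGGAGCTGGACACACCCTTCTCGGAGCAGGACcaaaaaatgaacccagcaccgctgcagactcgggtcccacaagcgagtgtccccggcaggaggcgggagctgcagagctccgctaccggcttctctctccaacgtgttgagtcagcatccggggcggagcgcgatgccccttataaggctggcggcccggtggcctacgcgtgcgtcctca
Gstp2: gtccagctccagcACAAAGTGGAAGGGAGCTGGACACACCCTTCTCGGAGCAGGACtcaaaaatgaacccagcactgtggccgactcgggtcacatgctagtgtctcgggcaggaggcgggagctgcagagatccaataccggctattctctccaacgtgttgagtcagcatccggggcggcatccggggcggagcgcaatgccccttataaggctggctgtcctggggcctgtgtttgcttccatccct
In Gsta3 (chr1:21240335-21240584, plus strand) and Gstm5 (chr3:107895604-107895853, plus strand), the capitals mark a match to TGACNNNGC, the core letters of the antioxidant response element that the factor NRF2 binds. The match in Gstm5 lay 42 to 34 bases before the start.
Gsta3: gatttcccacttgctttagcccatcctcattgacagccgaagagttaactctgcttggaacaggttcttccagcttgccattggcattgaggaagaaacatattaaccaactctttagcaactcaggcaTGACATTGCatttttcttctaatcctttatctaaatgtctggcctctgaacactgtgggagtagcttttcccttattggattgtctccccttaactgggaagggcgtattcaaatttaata
Gstm5: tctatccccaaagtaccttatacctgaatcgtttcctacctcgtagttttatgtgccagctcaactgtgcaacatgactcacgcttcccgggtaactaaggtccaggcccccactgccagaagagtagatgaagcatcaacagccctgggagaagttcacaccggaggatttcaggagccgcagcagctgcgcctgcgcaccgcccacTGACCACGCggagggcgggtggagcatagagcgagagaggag
The core was searched on both strands in the 64 windows of the 54 members that matched the RefSeq table, and it was found for 3 members (Gsta3, Gstm5 and Gstm7). It was present in 10.2% of the 32851 windows of the whole table, and its first letters also begin the motifs of AP-1 and CREB. The motif of the liver factor HNF1 was found in 3 of the 32851 windows and in none of the members' windows. A match is given as a description of the letters and not as a bound site, and variants of the core were not searched. The printed Gstp1 and Gstp2 regions both hold TGAGTCAGC, which has a G in place of the C of the core and was not counted.

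The retained libraries held 3045845 to 27801717 counts, with a median of 8735554, so that 3 counts, the limit that a count of 0 allows for counting error, came to 0.108 to 0.985 CPM (counts per mapped-read total, scaled alike in every library). Of the 61 members, 43 passed the filter on low counts in at least 1 organ and 16 passed it in all 9. The 18 that passed in no organ were Gstp3, Gstt4, Sult2a1 to Sult2a7, Sult3a1, Sult3a2, Sult6b1, Sult6b2, Ugt1a2, Ugt1a8, Ugt1a10, Ugt2a1 and Ugt2a2. Of these, 11 had at most 3 counts in every retained library (Sult2a1 to Sult2a6, Sult3a1, Sult3a2, Ugt1a8, Ugt2a1 and Ugt2a2), and for Ugt2a1 and Ugt2a2 98.8% and 94.5% of the exon bases were shared with another gene, so their counts say little. Each organ held the markers of its label, though the adipocyte marker sum of psWAT ran from 317 to 18294 CPM, and several libraries held markers of another tissue. The summed hepatocyte marker level was 634 to 2247 CPM in the STM libraries, the highest of these at 0 h replicate 3, except for 3061 CPM at 12 h replicate 2, and pancreatic acinar markers were at 19162 to 61679 CPM in all of them, so that STM levels are those of a stomach sample with some pancreas markers. One pgWAT library (18 h, replicate 2) had 5242 CPM, 2 pgWAT libraries (18 h replicate 3 and 22 h replicate 2) had epididymis marker sums of 22652 and 24588 CPM, 2 more had smaller ones (2898 CPM at 2 h replicate 2 and 610 CPM at 22 h replicate 3), and 1 psWAT library (12 h, replicate 3) held cerebellar markers. In the psWAT libraries the lymphocyte marker sum reached 2699 CPM and the skeletal muscle sum reached 34573 CPM.

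The first comparison asked in which organs the members were expressed. Each organ was set against the mean of the other 8 in a fit of all retained libraries with the mouse as a block. In LIV 37 of the 44 members tested were called higher, in STM 28 and in pgWAT 25. Of the 37, Ugt1a5, Ugt1a9, Ugt2b37 and Ugt2b38 passed the filter on low counts within LIV alone, as Sult1c1 did within OB, so their calls follow from the filter and support nothing. For the background, of the 22113 genes tested 35.5% were called higher in LIV, 34.1% in STM and 39.8% in pgWAT. In iBAT 12 members were called higher (background 32.5%), in psWAT 6 (38.9%), in OB 5 (42.7%), in BST 5 (42.6%), in BRN 4 (34.7%) and in CBL 3 (41.1%). The difference is one of mean log levels, so organs at 0 weigh on it, and 5 of the 25 members called in pgWAT, 3 of the 12 in iBAT, 2 of the 28 in STM and 1 of the 37 in LIV had a median there below 0.985 CPM. For 42.2% of the 396 pairs of member and organ the fit gave no estimate (an SE over 20 on the log2 scale), and in 94.6% of these the organ had a time group without a count, so no count of members lower in an organ is given. Of the 50 members over 3 counts in some library, the organ with the highest median was LIV for 30, STM for 8 and pgWAT for 4.

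Summed over its 21 genes, the GST family reached a median of 3899 CPM in LIV (3086 to 4701 over 18 libraries) and 3528 CPM in STM (2158 to 4717 over 17), and these ranges overlapped. It stood at 1335 CPM in pgWAT and between 304 and 546 CPM in the other organs. The UGT family was far more uneven. Its sum was 3042 CPM in LIV (2467 to 3528), 184 CPM in STM (66.7 to 334) and 24.4 CPM in pgWAT (4.72 to 225), and no library of the brain regions exceeded 2.19 CPM. The summed SULT level was 1424 CPM in LIV, followed by BST (591 CPM), BRN (522 CPM), STM (451 CPM), pgWAT (349 CPM), CBL (331 CPM) and OB (270 CPM). In the brain regions Sult4a1 made up most of it.

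**Figure D1:**
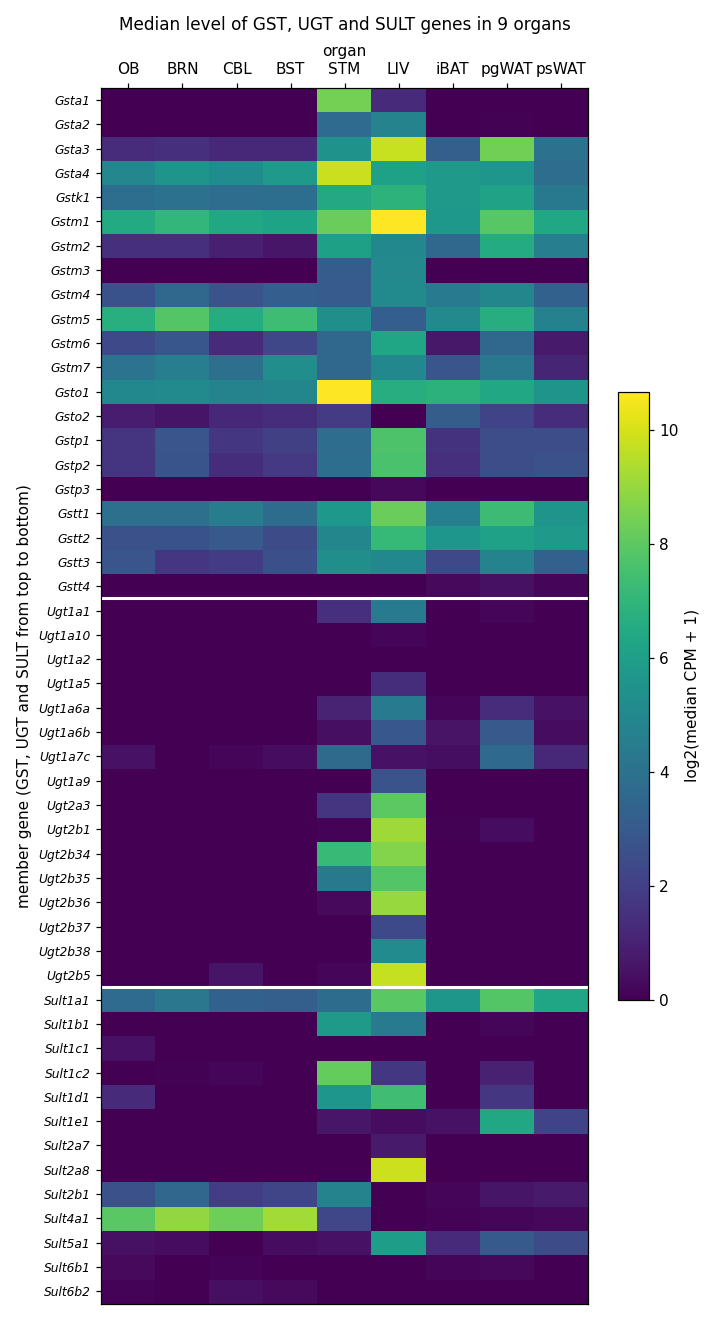
Heat map of the median level of each member over 3 counts in some library (rows, grouped by family) in each of the 9 organs (columns), as log2(CPM + 1) over the retained libraries. Most Ugt2 rows are bright in LIV, Ugt1a2, Ugt1a10 and Ugt1a7c are near dark there, and all UGT rows are at the dark end of the scale in the brain regions, several GST rows such as Gstm1, Gsta4 and Gsto1 carry signal in every organ while Gsta1 and Gstm3 are dark in 7, and Sult4a1 is the SULT row that is bright in the 4 brain regions.

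Among the glutathione S-transferases, different classes led in different organs. Per length, in RPKM (the CPM divided by the exon length in kilobases), the mu-class Gstm1 was the highest member in LIV (1108 RPKM), the omega-class Gsto1 in STM (797 RPKM) and in iBAT (57.7 RPKM), and Gstm1 again in pgWAT (163.9 RPKM) and psWAT (57.1 RPKM). Gstm1 had a median of 1632 CPM in LIV (935 to 2130), 300 CPM in STM and 241 CPM in pgWAT. Gsto1 ran the other way, with 1613 CPM in STM (648 to 2162) and 99.4 CPM in LIV.

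The alpha class was divided between the organs as well. Gsta3, which conjugates the epoxide of aflatoxin in mice, had 884 CPM in LIV (634 to 1171), 334 CPM in pgWAT (108.6 to 421) and 43.8 CPM in STM. Gsta1 was a stomach gene in these data, at 352 CPM in STM (175 to 565) and 1.46 CPM in LIV, and its median was 0 in the other 7 organs. Gsta4, which conjugates the lipid peroxidation product 4-hydroxynonenal, had 897 CPM in STM (409 to 1374) and 67.2 CPM in LIV. Per length it was the second member of iBAT after Gsto1, with 41.6 RPKM (52.6 CPM).

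Gstm5 had its highest medians in the brain. Its median was 227 CPM in BRN (151.9 to 280) and 163 CPM in BST (146.8 to 182.5), against 8.00 CPM in LIV, while pgWAT (99.3 CPM) stood between OB (106.8 CPM) and CBL (95.4 CPM), and it was called higher in all 4 brain regions and in pgWAT. Gstp1 and Gstp2 had similar medians in each organ, such as 206 and 192.9 CPM in LIV, 13.0 and 13.5 CPM in STM and 6.11 and 5.86 CPM in BRN. Gsto2 was low everywhere and highest in iBAT, at 7.81 CPM, where it led the members called higher. Gstt2 had 142.8 CPM in LIV, 67.6 CPM in pgWAT, 53.4 CPM in psWAT and 48.5 CPM in iBAT.

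The UDP-glucuronosyltransferases were LIV genes with a few exceptions. Ugt2b5, Ugt2b36, Ugt2b1 and Ugt2a3, which act on steroids, bile acids and drugs, had medians of 841, 518, 564 and 256 CPM in LIV, and per length Ugt2b5 (452 RPKM) was second in LIV only to Gstm1. In STM the medians of Ugt2b5, Ugt2b36 and Ugt2b1 were at or below 0.213 CPM, and their highest values there (18.97, 10.4 and 17.6 CPM) came in the library with the highest hepatocyte marker sum, followed by the 0 h replicate 3 library (5.33, 2.23 and 4.34 CPM), which was second in that sum. In pgWAT, the library with hepatocyte markers had 43.1 CPM of Ugt2b5 and 40.9 CPM of Ugt2b1 and the medians were 0 and 0.267 CPM. The median of Ugt2b5 was 0.529 CPM in CBL, against 0 in the other brain regions, and it was called higher there although it stood near the level of 3 counts.

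Ugt2b34 and Ugt2b35 were called higher in both LIV and STM. Ugt2b34 had 414 CPM in LIV (362 to 453) and 150.6 CPM in STM (37.1 to 279.5). Of the Ugt1a genes, Ugt1a1, which conjugates bilirubin, was a LIV gene (20.4 CPM) with 1.70 CPM in STM. Ugt1a7c was at 12.0 CPM in STM and 11.4 CPM in pgWAT but at 0.435 CPM in LIV, and Ugt1a6b was at 6.98 CPM in pgWAT and 6.44 CPM in LIV. Ugt1a1 overlapped a gene on the opposite strand over 41.5% of its exon bases, and whether the counting used the strand was not given in the sources used here.

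Several sulfotransferases were restricted to 1 organ or to the brain. Sult4a1, an orphan sulfotransferase of neurons, had medians of 577 CPM in BST (516 to 602), 494 CPM in BRN (435 to 602), 320 CPM in CBL (259 to 354) and 246 CPM in OB (219 to 275). The ranges of BST and BRN overlapped, as did those of CBL and OB, but the first pair lay above the second. The median outside the brain was at most 3.85 CPM, in STM. The one exception among the libraries was the psWAT library with cerebellar markers, at 188.8 CPM. Sult2a8, a bile acid sulfotransferase, had 920 CPM in LIV (685 to 1241) and a median of 0 in the other 8 organs, with 58.7 CPM in the pgWAT library that held hepatocyte markers and 15.9 and 6.69 CPM in the 2 STM libraries with the highest sums of them. Sult1e1, the estrogen sulfotransferase, was a white fat gene here, at 84.5 CPM in pgWAT (33.4 to 149.6), 3.45 CPM in psWAT and 0.263 CPM in LIV.

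STM had sulfotransferases of its own. Sult1c2 had 279 CPM in STM (106 to 383) and 2.35 CPM in LIV, and Sult1b1, which acts on thyroid hormones, had 51.6 CPM in STM and 19.3 CPM in LIV. Sult2b1, which acts on cholesterol and on pregnenolone, had 26.4 CPM in STM and 10.4 CPM in BRN and a median of 0 in LIV. Sult1d1, which acts on catecholamines, had 168.6 CPM in LIV and 48.2 CPM in STM. Sult1a1, the general phenol sulfotransferase, had 243 CPM in LIV and 226 CPM in pgWAT. In OB, Sult1c1 (0.427 CPM) and Sult1d1 (1.39 CPM) were called higher than the mean log level of the other 8 organs. Organs at 0 weigh on that mean, and the medians of Sult1d1 in LIV, STM and pgWAT were above its median in OB. Sult1c1 passed the filter on low counts within OB alone, so its call supports nothing. The level of 3 counts was 0.169 to 0.365 CPM in the OB libraries.

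The second comparison asked which members changed with the length of the fast. Within each organ, the 18 and 22 h libraries (late) and the 8 and 12 h libraries (middle) were each set against the 0 and 2 h libraries (early), and a member was called at an adjusted p below 0.05 over all genes of that organ. In LIV, 10 of the 37 members tested were called late (27%, against 15.0% of all genes), 4 higher and 6 lower. In the middle period 8 were called (21.6%, against 18.0%), 3 higher and 5 lower. The late median over the 37 members was a log2 fold change of -0.08, against 0.011 over all genes, so the members as a group stood near 0. In bulk tissue, fewer cells of a type and less RNA per cell cannot be told apart.

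The 4 members that rose late in LIV were glutathione S-transferases. Gstm1 had a lowest, median and highest value of 935, 1111 and 1236 CPM early, 1247, 1663 and 1886 CPM in the middle period, and 1360, 1859 and 2130 CPM late. Its early range overlapped neither of the others, and its log2 fold change was 0.65 ± 0.10 (SE, n = 6 and 6) late, with an adjusted p of 0.000371 by edgeR's quasi-likelihood test. The rise was present at 8 h, when the 3 mice had 1651, 1779.7 and 1886 CPM.

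The pi-class pair rose together. Gstp2 went from 74.7, 134.9 and 166.96 CPM early to 140, 192.9 and 275 CPM in the middle period and 204, 272 and 310 CPM late, with log2 fold changes of 0.52 (adjusted p = 0.0297 by edgeR) and 0.97 ± 0.16 (adjusted p = 0.000846). Gstp1 went from 68.7, 137.5 and 179 CPM early to 216, 264 and 316 CPM late (log2 fold change 0.88 ± 0.18, adjusted p = 0.00481 by edgeR). For both genes the late libraries all lay above the early ones. The theta-class Gstt2 went from 68.8, 111.8 and 147.7 CPM to 163, 196.1 and 253 CPM late, again with no overlap (0.77 ± 0.15 on the log2 scale, adjusted p = 0.00237 by edgeR), while at 8 and 12 h its 6 libraries lay between 127 and 149.1 CPM.

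The GST family did not move as one. Gsta3 fell late, from 881, 1020.4 and 1171 CPM to 634, 794 and 889 CPM (log2 fold change -0.44 ± 0.09, adjusted p = 0.00221 by edgeR). Its early and late ranges touched at one end, with the highest late library just above the lowest early one. Its 8 h libraries (1023 to 1164 CPM) were within the early range and its 12 h libraries (662 to 872 CPM) were below it. Gstm7 fell by 0.36 on the log2 scale late (adjusted p = 0.0432 by edgeR), from a median of 33.2 to 27.1 CPM with overlapping ranges, and Gsto1 fell by 0.34 in the middle period (adjusted p = 0.0299 by edgeR), from 101.5 to 86.8 CPM, without being called late. The family's summed level went from a median of 3356 CPM early (3214 to 3458) to 4281 CPM late (3591 to 4701).

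**Figure D2:**
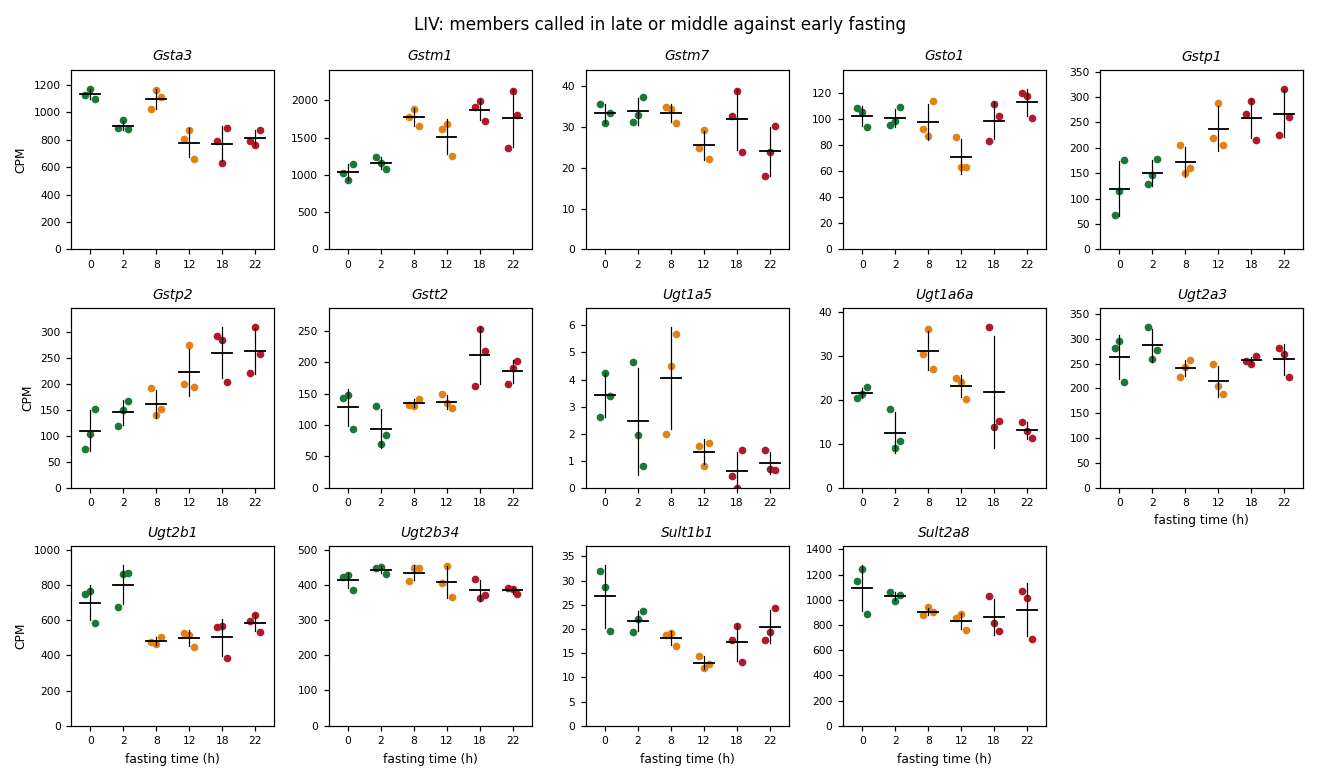
Level in LIV (CPM, linear axes from 0) at each of the 6 fasting times (h) for members called late or in the middle period, 1 point per mouse, with a horizontal bar for the mean and a vertical bar for the SD (n = 3). Gstm1, Gstp1, Gstp2 and Gstt2 stand higher at 18 and 22 h than at 0 and 2 h, and Ugt2b1 and Gsta3 stand lower.

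Among the UDP-glucuronosyltransferases of LIV, the members called late all fell. Ugt2b1 had 587, 758 and 867 CPM early, 446, 491 and 530 CPM in the middle period and 383, 564 and 628 CPM late. Its middle range did not overlap the early one, its late range did, and the log2 fold changes were -0.67 ± 0.11 (adjusted p = 0.00127) and -0.55 ± 0.11 (adjusted p = 0.00235 by edgeR). Ugt1a5 was low throughout, with a median of 3.00 CPM early and 0.686 CPM late (log2 fold change -1.94 ± 0.49, adjusted p = 0.0132 by edgeR), and late values near 3 counts make its size uncertain. Ugt2b34 fell by 0.24 on the log2 scale late (adjusted p = 0.0367 by edgeR), from a median of 430 to 381 CPM.

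In the middle period Ugt2a3 fell from a median of 280 to 233.2 CPM (log2 fold change -0.33 ± 0.10, adjusted p = 0.0263 by edgeR) and Ugt1a6a rose from 19.1 to 26.01 CPM (0.66 ± 0.20, adjusted p = 0.0330). Neither was called late. Ugt1a1 had 21.1, 42.5 and 50.7 CPM early and 7.47, 13.3 and 46.6 CPM late, a log2 fold change of -1.14 ± 0.42 that missed the threshold (adjusted p = 0.0916 by edgeR), with 1 late library among the early ones. Ugt2b5, the most abundant UDP-glucuronosyltransferase of LIV per length, had a log2 fold change of 0.28 and an adjusted p of 0.0783 by edgeR.

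Of the LIV sulfotransferases, Sult1b1 was called in both periods. It had 19.4, 22.8 and 32.0 CPM early, 11.9, 15.5 and 19.3 CPM in the middle period and 13.3, 18.6 and 24.4 CPM late, and its log2 fold changes were -0.70 ± 0.13 (adjusted p = 0.00258) and -0.45 ± 0.13 (adjusted p = 0.0277 by edgeR). The lowest values thus came at 8 and 12 h, when no library overlapped the early ones. Sult2a8 had a median of 1049 CPM early, 882 CPM in the middle period and 915 CPM late, a change of -0.35 on the log2 scale that was called in the middle period (adjusted p = 0.0364 by edgeR) and of -0.33 that was not called late (adjusted p = 0.0516). Of the 14 members called in either period, 4 were called in both (Gstm1, Gstp2, Sult1b1 and Ugt2b1).

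In LIV, the lane number in the column headers followed the fast, since all 0 and 2 h libraries and 2 of the 8 h libraries carried one lane and all others a second. With the lane as a term, 0 of the 37 members were called late (0.0571% of all genes) and 3 in the middle period (Gstm1, Gsto1 and Ugt2b1, against 8.20% of all genes), and the 10 late changes kept their direction, with Gstm1 at 0.74 and Ugt2b1 at -0.72 on the log2 scale. Within the first lane, the 8 h libraries had 1779.7 and 1886 CPM of Gstm1, above the highest early value of 1236 CPM, and 475 and 465 CPM of Ugt2b1, below the lowest early value of 587 CPM. For the late libraries, lane and fasting time cannot be told apart. The hepatocyte marker sum lay between 97710 and 120926 CPM late and between 99590 and 109347 CPM early. Leaving out each library in turn, 7 of the 10 late members kept their call every time (Gsta3, Gstm1, Gstp1, Gstp2, Gstt2, Ugt1a5 and Ugt2b1), and 3 of the 8 middle ones (Gstm1, Sult1b1 and Ugt2b1), these being the 3 left without 0 h replicate 1 or 2, 8 h replicate 1 or 12 h replicate 2.

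In STM, 13 of the 35 members tested were called late (37.1%, against 22.7% of all genes), 4 higher and 9 lower, and 6 of them changed more than 2-fold. In the middle period 0 were called (0.0% of all genes) and 4 had an unadjusted p below 0.05 (5.02% of all genes). The members that fell came from all 3 families. The median log2 fold change of the 35 members was -0.16, against 0.007 over all genes.

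Several UDP-glucuronosyltransferases and sulfotransferases of STM fell. Ugt2b35 had 20.2, 25.1 and 38.7 CPM early and 5.27, 9.50 and 14.0 CPM late (log2 fold change -1.56 ± 0.26, n = 6 and 6, adjusted p = 0.00120 by edgeR's quasi-likelihood test). Ugt2b34 had 173, 203 and 252 CPM early and 37.1, 90.7 and 135.2 CPM late (-1.31 ± 0.30, adjusted p = 0.00745). Sult1d1 had 62.97, 83.1 and 139.1 CPM early and 8.65, 22.4 and 45.3 CPM late (-1.90 ± 0.45, adjusted p = 0.0104 by edgeR). In these 3 genes, and in Ugt2a3 (-2.18 ± 0.59, adjusted p = 0.0154 by edgeR, from a median of 2.54 to 0.616 CPM), no late library reached the lowest early one.

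Sult1b1 went from 46.6, 88.7 and 116.6 CPM early to 12.0, 29.2 and 62.2 CPM late (log2 fold change -1.40 ± 0.38, adjusted p = 0.0192 by edgeR), and Sult1c2, which had the highest level per length among the sulfotransferases of STM, from 233.8, 337 and 379 CPM to 106, 159.3 and 324 CPM (-0.89 ± 0.28, adjusted p = 0.0329). Both pairs of ranges overlapped. The summed UGT level of STM had a median of 247 CPM early (208 to 312) and 120 CPM late (66.7 to 164.1), and the summed SULT level 553 CPM early (384 to 666) and 277 CPM late (207 to 491). The 1 sulfotransferase that rose was Sult1a1, from 9.38, 11.5 and 14.1 CPM to 11.7, 20.1 and 35.2 CPM (0.81 ± 0.21, adjusted p = 0.0120 by edgeR).

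The glutathione S-transferases of STM went both ways. Gstm1, Gstp1 and Gstp2, which had risen in LIV, rose here too, while the alpha genes Gsta3 and Gsta4 and the mu gene Gstm3 fell. Gstm1 rose from a median of 253 to 485 CPM (0.65 ± 0.21, adjusted p = 0.0321 by edgeR), Gstp1 from 9.30 to 20.1 CPM (0.94 ± 0.26, adjusted p = 0.0156) and Gstp2 from 9.46 to 19.1 CPM (0.93 ± 0.25, adjusted p = 0.0155), each with overlapping ranges. Gsta3 fell from 40.02, 52.7 and 93.1 CPM to 22.9, 32.2 and 37.3 CPM (a log2 fold change of -0.997 ± 0.23, adjusted p = 0.00622 by edgeR), with no overlap. Gsta4 fell from a median of 1142 to 595 CPM (-0.80 ± 0.26, adjusted p = 0.0346 by edgeR), and Gstm3, a mu gene, from 12.4, 17.4 and 23.7 CPM to 2.29, 5.34 and 7.98 CPM (-1.80 ± 0.38, adjusted p = 0.00446 by edgeR).

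Of the other abundant members of STM, Gsto1 had 1210.4, 1794 and 2076 CPM early and 648, 919 and 2081 CPM late and was not called (-0.67, adjusted p = 0.112 by edgeR), with 1 late library as high as the early ones. Gsta1 had a median of 359 CPM early and 239.5 CPM late (-0.17, adjusted p = 0.686 by edgeR).

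**Figure D3:**
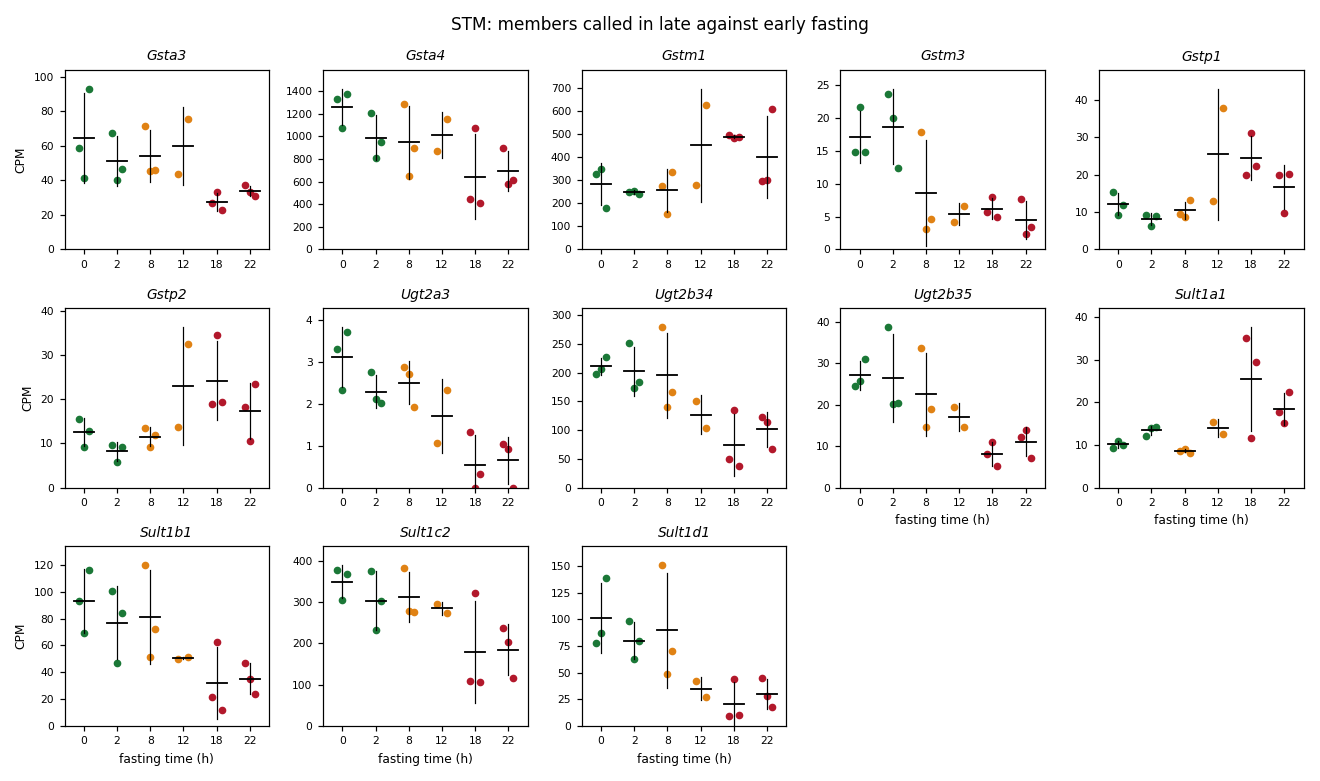
Level in STM (CPM, linear axes from 0) at each of the 6 fasting times (h) for members called late, 1 point per mouse, with a horizontal bar for the mean and a vertical bar for the SD (n = 3, and 2 at 12 h). Ugt2b34, Ugt2b35, Sult1d1 and Gsta3 stand lower at 18 and 22 h than in any 0 or 2 h mouse, and Gstp1, Gstp2, Gstm1 and Sult1a1 stand higher on average.

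The dissected STM differed in its cell markers between the periods, beside each of these changes. The summed gastric epithelium markers ran from 163697 to 230580 CPM early and from 100198 to 183670 CPM late, all 8 being above 3 counts. The skeletal muscle sum ran from 221 to 1524 CPM early and from 1983 to 4024 CPM late, and the median keratinocyte sum was 3939 and 10486 CPM. The pancreatic acinar sum was 32997 to 61679 CPM early and 19162 to 42967 CPM late, and the hepatocyte sum 768 to 2247 CPM early and 634 to 1212 CPM late. Their part in the results was not tested. The lane also followed the fast as in LIV, and with the lane as a term 0 of the 35 members were called late (0.0% of all genes), with every one of the 13 directions kept, so lane and late fast cannot be told apart. Of the 8 h libraries in the early lane, 1 had 33.7 CPM of Ugt2b35 and 150.9 CPM of Sult1d1, within or above the early range, and the other had 14.7 and 48.2 CPM, below it. Leaving out each library in turn, 10 of the 13 kept their call every time, all but Gsta4, Gstm1 and Sult1c2, and with single times 9 members were called at 18 h against 0 h (14.3% of all genes) and 0 at 22 h against 0 h (0.24%).

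Set side by side, 6 members were called late in both LIV and STM (6 of 10 and 6 of 13), and each moved the same way in both organs. These were 20% of the 30 members tested in both organs. Of the 13058 genes tested in both, 6.25% were called in both, and 97.9% of these moved the same way, so a shared direction is not particular to the members. Gstm1, Gstp1 and Gstp2 were higher, and Gsta3, Sult1b1 and Ugt2b34 were lower. The organs came from the same mice, and their lanes split at the same libraries, so the pair of results is not independent. Whether the late change differed between the organs was tested in the fit of all organs, where 0 of the 44 members were called, 5 gave no estimate, 14 had an unadjusted p below 0.05 (12.6% of all genes), and 1.41% of all genes were called.

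The smallest adjusted p-values of this difference belonged to genes that fell in STM with little change in LIV. For Sult1d1 the log2 fold change was -1.90 in STM and -0.08 in LIV in the fits of each organ alone, and the fit of all organs gave a difference of 2.25 ± 0.66 with an adjusted p of 0.0636 by edgeR. For Gstm3 the difference was 1.80 ± 0.52 (adjusted p = 0.0686 by edgeR), and it was the 1 member called in the fit without the mouse as a block. The threshold was missed in both, which does not show that the organs responded alike.

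**Figure D4:**
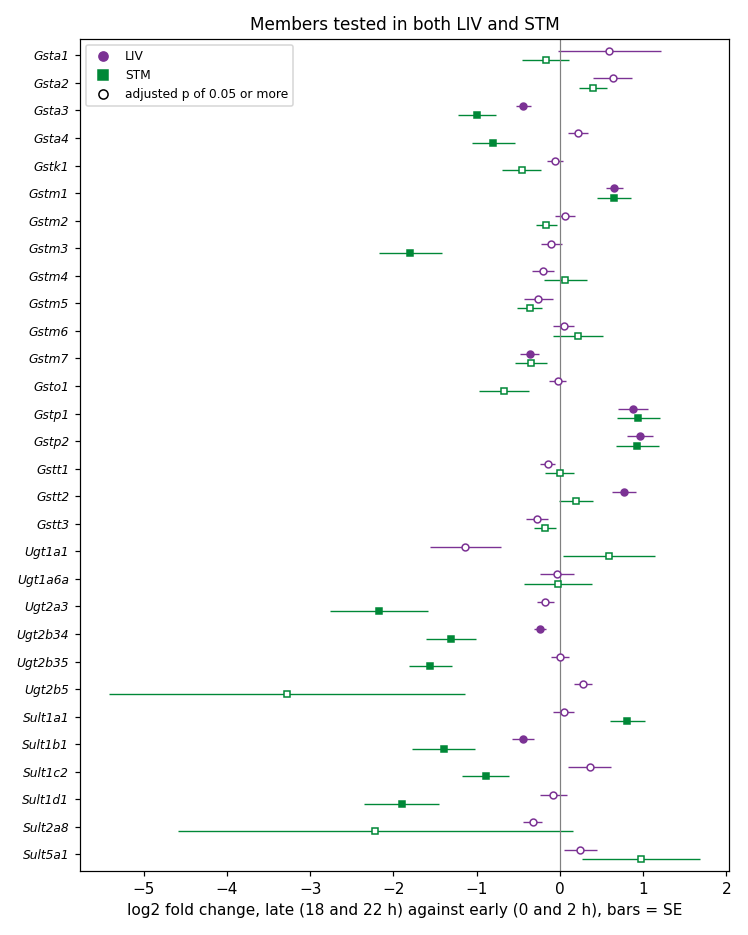
Late against early log2 fold change (horizontal axis, bars are SE) of each member tested in both organs (rows), with circles for LIV, squares for STM and filled symbols for an adjusted p below 0.05. Filled symbols of both organs lie right of 0 for Gstm1, Gstp1 and Gstp2 and left of 0 for Gsta3, Sult1b1 and Ugt2b34, while Sult1d1 and Gstm3 are far left in STM and near 0 in LIV.

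In iBAT, 10 of the 19 members tested were called late (52.6%, against 36% of all genes), and all 10 were higher. They were Gsta4, Gstk1, Gstm2, Gstm5, Gstm7, Gsto1, Gstp2, Gstt1, Gstt2 and Sult1a1. The median log2 fold change over the 19 was 0.72, against -0.08 over all genes. In the middle period 0 were called (0.0619% of all genes) and 4 had an unadjusted p below 0.05 (6.99% of all genes).

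Gsto1, the most abundant member of iBAT, had 107, 73.2 and 113.8 CPM at 0 h, 121.2, 114.7 and 99.6 CPM at 2 h, 124.3, 146.9 and 144.8 CPM at 18 h and 179 and 175 CPM in the 2 retained libraries of 22 h (log2 fold change 0.52 ± 0.13, n = 6 and 5, adjusted p = 0.00714 by edgeR). Gstt2 had 41.3, 46.96 and 48.5 CPM at 0 h, 45.9, 35.4 and 40.97 CPM at 2 h, 59.1, 54.6 and 69.5 CPM at 18 h and 185 and 109.4 CPM at 22 h (1.08 ± 0.18, adjusted p = 0.00112 by edgeR). Gstk1, which is found in mitochondria and peroxisomes, rose from 38.97 to 52.4 CPM early to 62.4, 54.4, 66.2, 78.9 and 89.7 CPM late (0.55 ± 0.15, adjusted p = 0.00838 by edgeR). None of these 3 genes had a late library within the early range, and their highest values were at 22 h.

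Gsta4 (0.86 ± 0.21, adjusted p = 0.00621), Gstm2 (0.91 ± 0.18, adjusted p = 0.00176) and Gstp2 (1.14 ± 0.42, adjusted p = 0.0417 by edgeR) were higher mainly at 22 h. Their 18 h values were 52.6, 52.6 and 55.4 CPM for Gsta4, 10.5, 12.3 and 10.5 CPM for Gstm2 and 1.40, 2.14 and 1.46 CPM for Gstp2, while the 22 h values were 154.3 and 79.6, 25.7 and 27.95, and 9.82 and 3.73 CPM. The early ranges were 30.1 to 56.4, 7.54 to 11.0 and 0.707 to 2.30 CPM. The 18 h libraries of Gsta4 and Gstp2 thus lay within the early range.

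The iBAT calls rested on the 2 libraries of 22 h, each of which was the only iBAT library in its lane, so a lane term could not be separated from them. Without the 22 h libraries 0 members were called (0.0138% of all genes), and 18 h against 0 h called 0 (0.275%) and 22 h against 0 h called 12 (41% of all genes). Leaving out each library singly, 8 of the 10 kept their call every time, all but Gsta4 and Gstp2. The summed markers of adipocytes in general ran from 3401 to 4797 CPM early and from 5937 to 11265 CPM late, and those of brown adipocytes from 5155 to 8896 CPM early and from 6953 to 10005 CPM late. Their part in these changes was not tested.

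**Figure D5:**
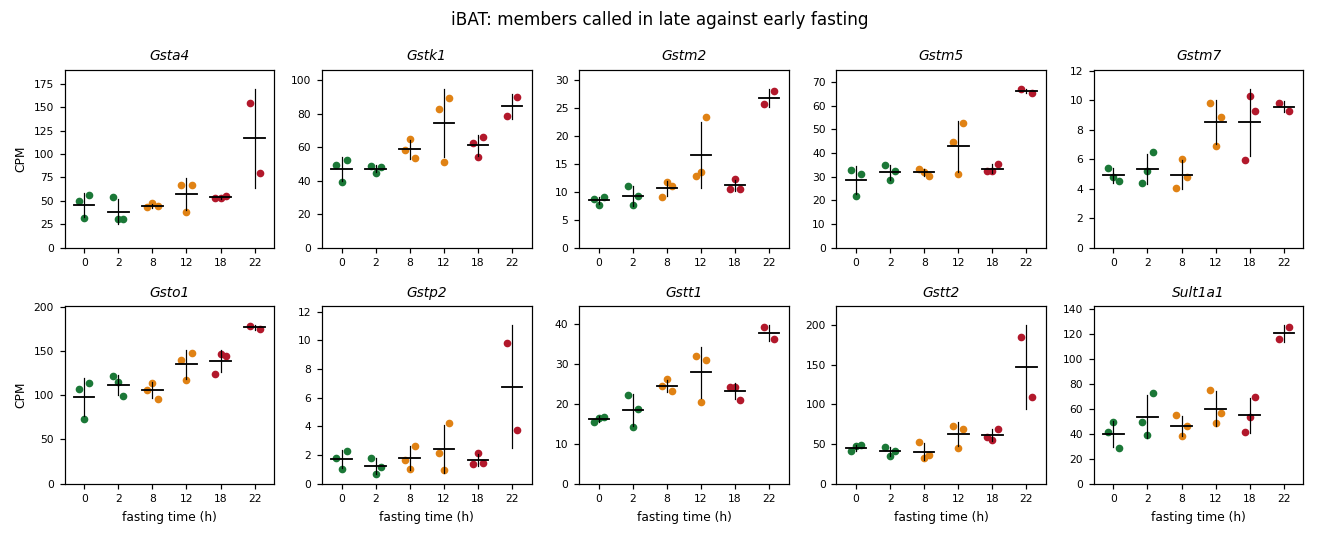
Level in iBAT (CPM, linear axes from 0) at each of the 6 fasting times (h) for the members called late, 1 point per mouse, with a horizontal bar for the mean and a vertical bar for the SD (n = 3, and 2 at 22 h). Gsto1 and Gstk1 are already raised at 18 h, and Gstt2, Gsta4 and Gstm2 have their highest points at 22 h.

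In BRN, 4 of the 19 members tested were called late (7.43% of all genes), all higher, and 1 in the middle period (2.94% of all genes). With the lane or the number series of the library as a term, or with all 18 libraries, 0 members and 0.0% of all genes were called late. All 5 late libraries carried the number series that 2 of the 6 early ones carried. The pi-class pair led again. Gstp2 had 2.71, 2.28 and 3.50 CPM at 0 h, 4.87, 4.90 and 3.16 CPM at 2 h, and 17.7, 8.42, 8.52, 8.97 and 5.63 CPM in the 5 late libraries (log2 fold change 1.67 ± 0.38, n = 6 and 5, adjusted p = 0.0197 by edgeR), and it was also called in the middle period (1.47 ± 0.38, adjusted p = 0.0430). Gstp1 had late values of 13.1, 6.82, 8.52, 5.40 and 6.85 CPM against 2.51 to 4.71 CPM early (1.39 ± 0.38, adjusted p = 0.0376 by edgeR). For both genes the late values all lay above the early ones.

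Gstm7 had 34.8, 27.1, 28.3, 23.8 and 25.2 CPM late against 18.2 to 20.3 CPM early (0.67 ± 0.20, adjusted p = 0.0476 by edgeR), and Gsta4 had 50.6, 56.9, 45.7, 59.3 and 44.2 CPM against 32.1 to 52.3 CPM (0.60 ± 0.18, adjusted p = 0.0496). None of the 4 BRN members kept its call when each library was left out in turn, and 0 remained without any one of 0 h replicate 1, 2 h replicates 2 and 3, 18 h replicate 2 and 22 h replicates 1 and 2, while 9 were called without 18 h replicate 3, when 32.8% of all genes were. Cell markers shifted with the period, the median oligodendrocyte sum being 8262 CPM early and 16144 CPM late and the median neuron sum 4959 and 3991 CPM, and their part was not tested. Sult4a1, the most abundant member, was not called in any brain region.

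The other organs gave no call in the main comparisons. In OB 0 of 21 members were called late (4.87% of all genes) with 6 at an unadjusted p below 0.05 (25.1% of all genes), and 0 in the middle period (0.185%) with 4 (13.1%). In CBL 0 of 19 were called in either period (2.48% late and 0.0% middle), with 2 and 1 at an unadjusted p below 0.05 (19.1 and 11.8% of all genes), and in BST 0 of 19 (0.0775% and 0.0238%), with 2 and 1 (11.6 and 9.51%). These counts were by edgeR's quasi-likelihood test, and DESeq2 called 1 member late in OB (Gstm5) and 7.91% of all genes. All early OB libraries carried the same lane and all late ones another, so lane and late fast cannot be told apart there.

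In pgWAT 0 of 29 members were called late (0.00609% of all genes) and 0 in the middle period (0.0%), with 15 and 0 at an unadjusted p below 0.05 (20.2 and 5.70% of all genes), and DESeq2 called 3 late (Gstm1, Sult2b1 and Sult5a1) and 4.57% of all genes. Without 2 h replicate 1, edgeR called 5 (Gsta4, Gstk1, Gstm1, Gstp1 and Gstp2) and 6.65% of all genes. All late pgWAT libraries carried the same lane and no early library carried it, so lane and late fast cannot be told apart here. The members with the smallest adjusted p-values included the UGT genes of the library with hepatocyte markers. Gstm1 had 419 and 538 CPM in the pair with the highest epididymis markers, 255 CPM at 2 h replicate 2 and 404 CPM at 22 h replicate 3, which held less of them, and 131.1 to 352 CPM in the other pgWAT libraries. Sult1e1 had 116.8, 85.1 and 56.1 CPM at 0 h and 99.7, 149.6 and 113.3 CPM at 2 h, against 75.4, 67.3, 33.4, 84.0, 53.7 and 61.2 CPM late, a log2 fold change of -0.57 with an adjusted p of 0.199 by edgeR. In psWAT 0 of 22 were called late (0.0% of all genes) and 0 in the middle period (0.0%), with 1 and 5 at an unadjusted p below 0.05 (6.83 and 10.4% of all genes). The psWAT marker sums varied widely within each period, early from 520 to 15780 CPM for adipocytes, 681 to 2699 CPM for lymphocytes and 17.4 to 34573 CPM for skeletal muscle, and late from 317 to 10020 CPM, 542 to 2450 CPM and 24.2 to 23289 CPM, and their part was not tested.

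The genes that supply and regulate the conjugation reactions were described in LIV and STM from lists of donor synthesis, regulators and transporters. The counts of these short lists are to be read beside the 15.0% of all genes called late in LIV and the 22.7% in STM, in both directions. They carry the limits given above, since the lane followed the fast in both organs and the STM cell markers differed between the periods. With the lane as a term, hardly any gene of either organ was called late. In LIV, the list of glutathione synthesis and recycling had 3 of 6 tested genes higher late and 0 lower. Chac1, which degrades glutathione, rose from a median of 2.11 to 6.05 CPM (log2 fold change 1.77 ± 0.28, adjusted p = 0.000442 by edgeR), and the synthesis enzymes Gss (0.30) and Gclc (0.32) rose slightly. In STM the same list had 0 higher and 3 of 8 lower, with Gsr, which reduces oxidised glutathione, at 91.4 CPM early and 35.3 CPM late (-1.24 ± 0.28, adjusted p = 0.00604 by edgeR).

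Of the genes that supply or clear PAPS, the sulfate donor, 3 of 6 tested were lower late in LIV and 3 of 5 in STM, and none was called higher. Bpnt1, which clears the product left when PAPS has given up its sulfate, went from 36.7 to 24.01 CPM in LIV (-0.75 ± 0.13, adjusted p = 0.000993 by edgeR) and from 99.1 to 31.1 CPM in STM (-1.67 ± 0.22, adjusted p = 0.000296). The synthases Papss1 (-0.79) and Papss2 (-0.42) in LIV and Papss1 (-0.60) in STM were lower as well. Of the 4 genes that supply UDP-glucuronic acid, Slc35b1, a nucleotide carrier, was lower in LIV (-0.63) and in STM (-0.50) and the others were not called late, while Ugp2 was lower in the middle period in LIV (-0.29, adjusted p = 0.0497 by edgeR).

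Among NRF2, its partners and its targets, 1 of 10 was higher and 0 lower in LIV, the 1 being Gclc. Gclc and Gclm also belong to the list of glutathione synthesis and recycling, so the counts of both lists overlap in LIV and in STM. In the middle period of LIV, when 18.0% of all genes were called, Gclc (0.46) and Nfe2l2 (0.51), which encodes NRF2 itself, were higher and Hmox1 lower (-0.87). In STM late 0 were higher and 4 of 10 lower, among them Nfe2l2, at 358 CPM early and 198 CPM late (-0.87 ± 0.15, adjusted p = 0.00124 by edgeR), and Txnrd1 (-0.63). Of the xenobiotic receptors and liver factors, Ahr was the 1 of 8 called in LIV, from 40.2 to 26.9 CPM (-0.72 ± 0.15, adjusted p = 0.00479 by edgeR), and the 1 called in STM (-0.47), and in the middle period of LIV Ahr was lower (-0.58) and Nr1i3 higher (0.61). Of the 6 receptor target P450 genes, Cyp2c29 (336 to 180 CPM, -0.92) and Cyp1a2 (894 to 671 CPM, -0.61) fell in LIV, and none of the 3 tested in STM was called.

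Of the 15 other phase II enzymes reported for LIV, outside the 3 symbol rules, 1 was higher and 2 were lower late. Mgst3, a microsomal glutathione transferase, rose from 13.7 to 28.1 CPM (0.90 ± 0.19, adjusted p = 0.00481 by edgeR). Mgst1 fell from 3603 to 2913 CPM (-0.38) and Ugt3a2 from 184 to 137.1 CPM (-0.56). In STM 3 of 13 fell (Ugt8a, Tpmt and Nat2), a share near that of all genes. Of the transporters that carry conjugates, Slco1b2 in LIV (-0.38) and Abcc3 in STM (-0.73) were lower and none was called higher in either organ. Elsewhere, 6 of 13 other phase II enzymes were called higher late in iBAT (36% of all genes called), and 3 of 5 receptors and factors (Ahr, Arnt and Rxra) were called lower there. Gss and Slc35b2 were also called higher in iBAT and Slc35d1 lower. Hardly any iBAT gene was called without the 22 h libraries. Arnt was called lower late in BRN (7.43% of all genes called) and Mgst3 higher in OB. Of the transporters, Abcb1a was lower late in iBAT. Abcb1a and Abcg2 were higher in CBL (2.48% of all genes called) and Abcb1a and Slco1a4 lower in OB (4.87%). The 0 h libraries of CBL held 20396385 to 22071004 counts, more than any other CBL library, and in OB the lane followed the fast.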

How the data were processed

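The study made stranded polyA mRNA libraries (TruSeq, paired reads of 150 bases) and aligned them with TopHat2 (2.1.1 in the submitters' processing notes) to GRCm38.p5 and, per its methods, counted uniquely mapped reads per gene with HTSeq 0.9.1 in union mode over Gencode M16 exons. The authors deposited the raw counts per gene. Union mode drops reads in exons of several genes, and the strand setting was not given in the sources used here. Depth was 3045845 to 27801717 counts per retained library.

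CPM was computed here from each library's total, without scaling factors. Counts were tested in R 4.3.3 with edgeR 4.0.16 (quasi-likelihood test, TMM factors, robust spread), organ by organ over 6 time groups, after a filter that kept genes with the CPM of 10 counts at the organ's median depth in at least 3 libraries. P-values were adjusted by Benjamini and Hochberg over all genes, and ± marks the SE of a log2 fold change. The p-values measure the spread between mice. Organs were compared in 1 fit of 54 organ and time groups with the mouse within time as a block, since each mouse gave all 9 organs. In that fit the dispersion trend was estimated on every 20th gene by abundance and read at each gene's abundance. DESeq2 1.42.0, RLE factors, no filter, all libraries, other blocks and each library left out in turn were alternatives. In a further one, counts were summed over gene copies (Gstp1 with Gstp2, Gsta1 with Gsta2, and the Ugt1a genes), and its values are not given here. Scripts were tested on simulated data. The named members were the 3 highest of each organ, up to 10 called late and 5 called in the middle period by p, and up to 5 called higher in an organ, with up to 3 genes of each list. Members of LIV, STM or pgWAT beyond these were named after their values were seen. The 3 families, whose members follow from the symbols, and the lists were chosen with earlier results of these data known. One gene of the lists is not reported here.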

Additional observations from a re-analysis of the deposited data

How the results depend on the processing

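The organ pattern was stable in the alternatives run. The number of members called higher in LIV was 37 to 39 and in STM 28, in pgWAT 25, in iBAT 12 to 13, in psWAT 6, in OB 5 to 7, in BST 5 to 6, in BRN 4 to 5 and in CBL 3 to 4, without the mouse as a block, with RLE factors, with all libraries and with no filter on low counts. The test of LIV against STM called 1 member (Gstm3) without the mouse as a block and 0 in the other settings.

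The counts with fasting were less stable, and the cause was not tested except where a setting uses fewer samples or a stricter rule. With the added rule of an absolute log2 fold change over 1, the late counts were 1 in LIV, 6 in STM, 2 in iBAT and 2 in BRN. With the lane as a term they were 0 late in LIV, STM and BRN, 3 in the middle period of LIV and 0 in that of BRN; in iBAT the late contrast could not be separated from the lanes. At 18 h against 0 h the counts were 2 in OB (12.0% of all genes), 1 in BRN (2.41%) and 0 in iBAT (0.275%), where Gstp2 reversed to -0.18 on the log2 scale. At 22 h against 0 h they were 1 in BRN (6.88%), 0 in STM (0.24%) and 4 in LIV (4.15%). Without the 22 h libraries of iBAT, a setting chosen after seeing the data, 0 were called.

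With no filter on low counts, 3 members were called late in OB (6.36% of all genes), and in the middle period 4 in BRN (6.06%), 1 in CBL (1.03%) and 15 in LIV (11.3%). With all 18 libraries of BRN the counts were 0 late and 0 in the middle period, with RLE factors 2 late (7.34%), and with the library number series as a term, also chosen after seeing the data, 0 and 0. DESeq2 called 1 late in OB (7.91%), 8 late (14.5%) and 5 in the middle period (10.0%) in BRN, 1 in the middle period in iBAT (0.537%) and 3 late in pgWAT (4.57%). Leaving out the 3 pgWAT libraries with the highest epididymis markers, or the psWAT library with cerebellar markers, left 0 called. Both settings were chosen after seeing the data.

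Within an organ, equal replicate numbers did not mark a shared mouse across times, and libraries with the same number did not deviate together in every pair (mean correlations from -0.09 in psWAT to 0.175 in iBAT). With the replicate number as a block, 2 members were called late in OB (7.35% of all genes), 0 in the middle period of BRN (1.55%), 6 late in BRN (10.3%), 9 late in LIV (13.4%), 13 in STM (21.3%) and 11 in iBAT (36.9%).

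Leaving out each library in turn, the late counts ran from 0 to 2 in OB, 0 to 9 in BRN, 10 to 15 in STM, 7 to 11 in LIV, 9 to 14 in iBAT and 0 to 5 in pgWAT, and the middle counts from 0 to 4 in BRN, 0 to 1 in STM and 3 to 10 in LIV. In OB, 2 were called without 0 h replicate 3, 2 h replicate 1 or 18 h replicate 2. The 1 in STM was Gstm3, without 8 h replicate 1. Over the named members and all these settings, 822 values kept direction and call, 1 reversed and the others kept their direction without the call.

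The 2 or 3 mice per time, and libraries as small as 3045845 counts, limit what was detectable. Members below 1 CPM, Ugt1a genes counted from their first exons alone, and the Gstp pair are the least precise.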
